A study of Mus musculus with 8 samples.

Results

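The genes described here encode the proteins of the cytosolic ribosome. They were taken by name: symbols of the Rpl and Rps series with a number, the 3 stalk proteins Rplp0, Rplp1 and Rplp2, and Rpsa, without the S6 kinases whose symbols begin with Rps6k. The name rule found 84 genes with 140 probes on the array. Of these, 82 genes with 134 probes passed the filter on dim probes, which asked that both arrays of some group read well above background, out of 13868 genes and unnamed probes kept in all. They comprise 47 large subunit genes, 3 stalk genes and 32 small subunit genes. The other 2, Rpl39l and Rps4y2, were well above background on 0 arrays. Where a gene had several probes the brightest stood for it, which was the case for 42 members.

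The samples come from Ba/F3, an IL3-dependent line of mouse pro-B cells, here expressing either wild type FLT3 or FLT3/ITD. The FLT3 protein is a growth factor receptor of early blood cells, and the internal tandem duplication (ITD) found in acute myeloid leukaemia leaves it active without ligand. Cells of all groups were maintained in RPMI1640 with 10% FBS and 0.1 ng/ml IL3, then washed and kept for 4 h in medium with 0.5% BSA, alone or with 100 ng/ml recombinant murine Cxcl12, the chemokine ligand of Cxcr4. The 4 groups were wild type FLT3 cells without Cxcl12, FLT3/ITD cells without Cxcl12, and each of the pair with Cxcl12, with 2 arrays per group. The FLT3/ITD is the N51 form in the first set of 4 arrays and the N78 form in the second, so the form cannot be told apart from the set. Each set is 1 slide with 1 array per group, and a group had the same place on both slides, so group and place on the slide cannot be told apart either. The labels do not say how FLT3 was introduced, whether a line is 1 clone, or whether the 2 arrays of a group came from separate cultures. The p-values therefore measure only the spread between these arrays, which may be technical.

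A ribosome has a small subunit, which reads the mRNA, and a large subunit, which joins amino acids, and each ribosomal protein is needed in about equal copy number. The mRNAs of most ribosomal proteins start with a tract of pyrimidines, the 5′ terminal oligopyrimidine or TOP element, through which mTORC1 sets how much of them is translated. Their transcripts are among the most abundant of growing cells. A few members are paralogs with a lower or tissue-restricted expression, such as Rpl22l1 beside Rpl22, Rps27l beside Rps27 (Rps27l is a p53 target), and Rpl3l, a striated muscle form of Rpl3.

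Start-site sequences are printed for the called members Rps27l, Rpl36al and Rps15a, for Rpl22l1, and for the parents of the 3 paralogs among them, because a paralog and its parent encode related proteins from separate promoters. RefSeq promoter windows (GRCm38.p6) were found for 61 of the 82 members and for 27025 genes in all. Each line below holds 80 bases before the annotated start and the first 20 bases of the transcript, 5′ to 3′ on the strand of the gene. Capitals mark matches to 5 strings. The Ets-family motif CCGGAAG was searched on both strands. The pyrimidine string CTTTCC was searched on the transcript strand only. The other pyrimidine string, CTCTTT, was searched on that strand too and can overlap the first. The TATA-box letters TATAAA were searched on the transcript strand. The E-box letters CACGTG read the same on both strands.
Rps27 (chr3:90213629-90213728, minus strand): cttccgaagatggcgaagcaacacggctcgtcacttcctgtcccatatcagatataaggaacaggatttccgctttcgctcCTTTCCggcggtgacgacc
Rps27l (chr9:66946006-66946105, plus strand): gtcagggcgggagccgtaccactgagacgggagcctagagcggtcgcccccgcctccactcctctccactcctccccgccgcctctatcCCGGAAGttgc
Rpl36a (chrX:134585574-134585673, plus strand): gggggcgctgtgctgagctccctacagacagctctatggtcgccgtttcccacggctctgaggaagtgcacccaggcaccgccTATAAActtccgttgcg
Rpl36al (chr12:69184048-69184147, minus strand): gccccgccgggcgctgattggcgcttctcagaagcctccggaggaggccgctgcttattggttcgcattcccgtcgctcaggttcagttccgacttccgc
Rpl22 (chr4:152325646-152325745, plus strand): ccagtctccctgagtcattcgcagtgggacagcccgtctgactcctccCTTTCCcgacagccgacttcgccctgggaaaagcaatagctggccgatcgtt
Rpl22l1 (chr3:28805428-28805527, plus strand): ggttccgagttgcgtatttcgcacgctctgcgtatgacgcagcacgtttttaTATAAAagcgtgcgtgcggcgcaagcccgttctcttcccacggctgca
Rps15a (chr7:118116128-118116227, minus strand): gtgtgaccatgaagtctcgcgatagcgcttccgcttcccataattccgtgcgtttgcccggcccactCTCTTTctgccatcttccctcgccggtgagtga

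Over the whole 300-base windows, CCGGAAG was present for 23 of 61 members (37.7%) against 9.12% of all 27025 genes. The pyrimidine strings CTTTCC and CTCTTT were each present for 22 of 61 members (36.1%), against 14% and 12% of all genes. CACGTG was present for 8.2% of members and 7.24% of genes, and TATAAA for 9.84% and 8.88%. A match describes these letters alone. Within the printed stretches, Rps27 and Rpl22 hold CTTTCC where their paralogs Rps27l and Rpl22l1 hold other matches, and the Rpl36al stretch holds 0 of the searched strings.

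The members were near the top of the brightness range. On each array the median member stood at or above the 99.3rd percentile of all features, and 74 of 82 were in the top 5% on all 8 arrays. The exceptions included Rpl3l, whose probe was well above background on 7 of 8 arrays. No spot was marked as saturated on any array, and the brightest spot had 54.7% to 76.6% of the scanner's saturation value. Levels below are log2 processed signal minus the array's 75th percentile, so that 0 is the level of that percentile. A level belongs to 1 probe and is not compared between genes. The file positions (mm9) of 78 probes lay on the chromosome RefSeq gives for the gene. The probe of Rps27 was placed on chromosome 9 and that of Rps29 on chromosome 2, against RefSeq's 3 and 12, and processed copies of ribosomal protein genes could share signal with any of these probes. Of 12 pro-B cell markers, 7 were well above background on all 8 arrays and 4, Ebf1, Pax5, Igll1 and Il7r, on none; markers of other cell types were mixed too. Above it on all 8 were 4 of 7 mast cell and basophil genes, with Kit on none, 3 of 6 neutrophil genes, with the other 3, Elane, Ltf and S100a8, on none, 3 of 5 macrophage, 3 of 6 T cell, 3 of 5 erythroid and 0 of 4 fibroblast genes. Processed signal at the 75th percentile was 937 to 1109 in set 1 and 367 to 600.0 in set 2.

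**Figure D1:**
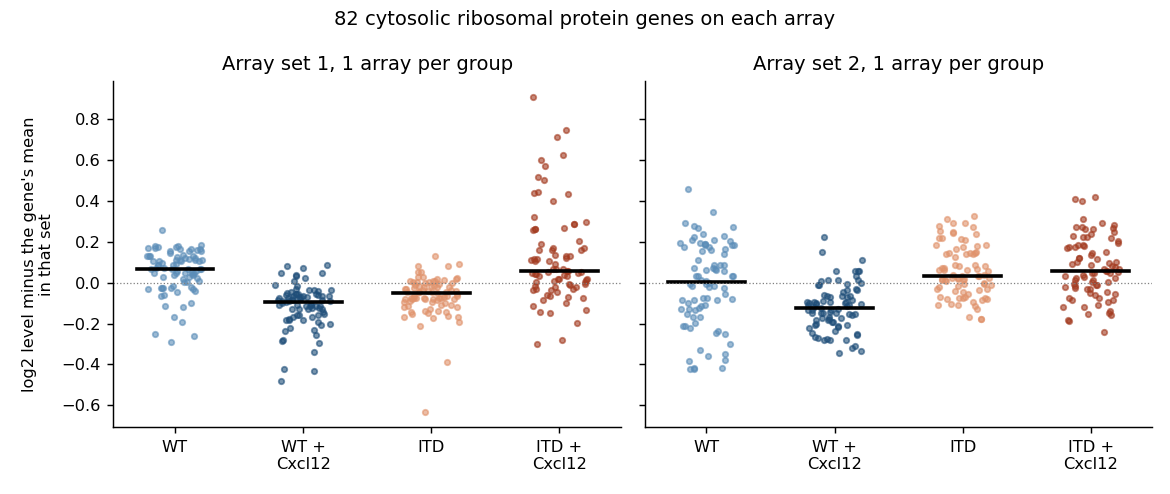
Level of each of 82 cytosolic ribosomal protein genes on each array, as log2 level minus the gene's mean over the 4 arrays of that set (vertical axis), by group (horizontal axis), for set 1 (left) and set 2 (right). Each point is a gene and each black bar the median of the 82; the array of wild type cells with Cxcl12 has the lowest median in both sets, -0.09 and -0.12.

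The first question was whether FLT3/ITD cells carried different amounts of ribosomal protein mRNA than wild type FLT3 cells. Few members were called, a share near that of all features called higher. Averaged over cells without and with Cxcl12, 3 of 82 members rose in FLT3/ITD cells and 0 fell, at a Benjamini-Hochberg adjusted p under 0.05 in limma over all features; the share of all 13868 features called was 6.17%, 3.58% higher and 2.59% lower. The 3 were Rps15a, a small subunit protein, Rpl36al, a near-identical paralog of the large subunit protein Rpl36a, and Rps27l. The median difference of the 82 members was 0.07 (log2; 0.04 in set 1 and 0.08 in set 2), against -0.01 for all features. The 95% confidence interval of the difference lay within 1.5-fold either way for 67 of 82 members and within 2-fold for all 82.

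Rps27l had levels of 5.55 and 6.13 in wild type cells (set 1 and set 2), 5.67 and 6.30 in wild type cells with Cxcl12, 5.75 and 6.81 in FLT3/ITD cells and 6.24 and 6.97 in FLT3/ITD cells with Cxcl12. Within each set both FLT3/ITD arrays lay above both wild type arrays. The average difference was 0.53 ± 0.13 (log2, SE; 0.38 in set 1 and 0.67 in set 2; limma adjusted p = 0.0463).

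Rpl36al had levels of 4.36 and 5.21 in wild type cells, 4.32 and 5.22 with Cxcl12, 4.53 and 5.85 in FLT3/ITD cells and 4.99 and 5.96 in FLT3/ITD cells with Cxcl12. The groups did not overlap within either set for this gene. Its average difference was 0.56 ± 0.14 (0.42 and 0.69; limma adjusted p = 0.0463).

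Rps15a had levels of 7.04 and 6.60 in wild type cells, 6.65 and 6.65 with Cxcl12, 6.93 and 7.30 in FLT3/ITD cells and 7.70 and 7.39 in FLT3/ITD cells with Cxcl12. In set 1 the FLT3/ITD array without Cxcl12 lay below the wild type array without it, so the groups overlapped there, while in set 2 they did not. Its average difference was 0.60 ± 0.15 (0.47 and 0.72; limma adjusted p = 0.0493).

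All 3 adjusted p-values were just under the threshold and were lost easily. Leaving out any of 5 arrays (either array of wild type cells with Cxcl12, the set 1 array of FLT3/ITD cells with Cxcl12, or the set 2 array of wild type or of FLT3/ITD cells without Cxcl12) left 0 members called. Fewer of all features were called in each of these 5 fits as well. The differences without a given array stayed between 0.42 and 0.75 for these 3 genes. Without the array set as a block 0 members and 0 of all features were called, with limma adjusted p of 0.838 for Rps15a and 0.999 for both others.

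Next in size came members that did not pass the test. Rpl13a, a large subunit protein that is also part of the interferon-gamma translational silencing complex, differed by 0.58 ± 0.17 (0.72 in set 1, 0.44 in set 2; limma adjusted p = 0.0791). Its highest set 1 level, 7.59, was on the FLT3/ITD array with Cxcl12, and the other 3 arrays of that set had 6.25 to 6.48. Rpl22l1 differed by 0.48 ± 0.14 (adjusted p = 0.08) and Rpl29 by 0.50 ± 0.13 (adjusted p = 0.0566), where Rpl29 has 4 kept probes. Without the set 2 array of FLT3/ITD cells with Cxcl12, Rpl13a and Rpl22l1 were called in place of the 3. At the other end were Rpl41, the smallest ribosomal protein, with -0.20 ± 0.10 (adjusted p = 0.236), Rps2 with -0.18 ± 0.11 (adjusted p = 0.322) and Rps18 with -0.17 ± 0.11 (adjusted p = 0.381).

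In 5 of 82 members, Rpl13a, Rpl29, Rpl36al, Rps27l and Rps9, both FLT3/ITD arrays of each set lay above both wild type arrays of that set; 9.80% of all features did so. The reverse order held for 1 member, Rpl41, and for 9.86% of all features. Both counts lie below the share of all features.

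By their brightest probes, core proteins of the ribosome had small differences between the 2 kinds of cell. Rpl5 and Rpl11, which with 5S rRNA form the particle that binds Mdm2, differed by 0.08 ± 0.10 and -0.01 ± 0.10 (average FLT3/ITD difference, log2). The stalk proteins, which recruit translation factors, had differences of -0.09 ± 0.10 (Rplp0), -0.14 ± 0.09 (Rplp1) and -0.07 ± 0.10 (Rplp2). Rps6, the substrate of S6 kinase, had 0.20 ± 0.11, Rps3 of the mRNA entry site 0.08 ± 0.10, Rpsa, also known as a laminin receptor, 0.16 ± 0.14, and Rps19, mutated in Diamond-Blackfan anaemia, -0.13 ± 0.10. None of these passed the test (limma adjusted p of 0.296 to 0.982). Dimmer kept probes gave other values for Rps19 (0.93), Rps3 (0.68) and Rpsa (-0.38), each with the same sign in both sets. Those of Rpl5, Rpl11, Rplp0 and Rplp2 gave -0.07 to 0.20. The members with the smallest spread over the 8 arrays, after each set's mean was subtracted, were Rps27, Rpl6, Rps25, Rpl10 and Rpl32, with SDs of 0.05 to 0.08. Those with the largest were Rpl13a, Rps15a, Rpl3l, Rpl22l1 and Rpl7l1, with SDs of 0.37 to 0.47.

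**Figure D2:**
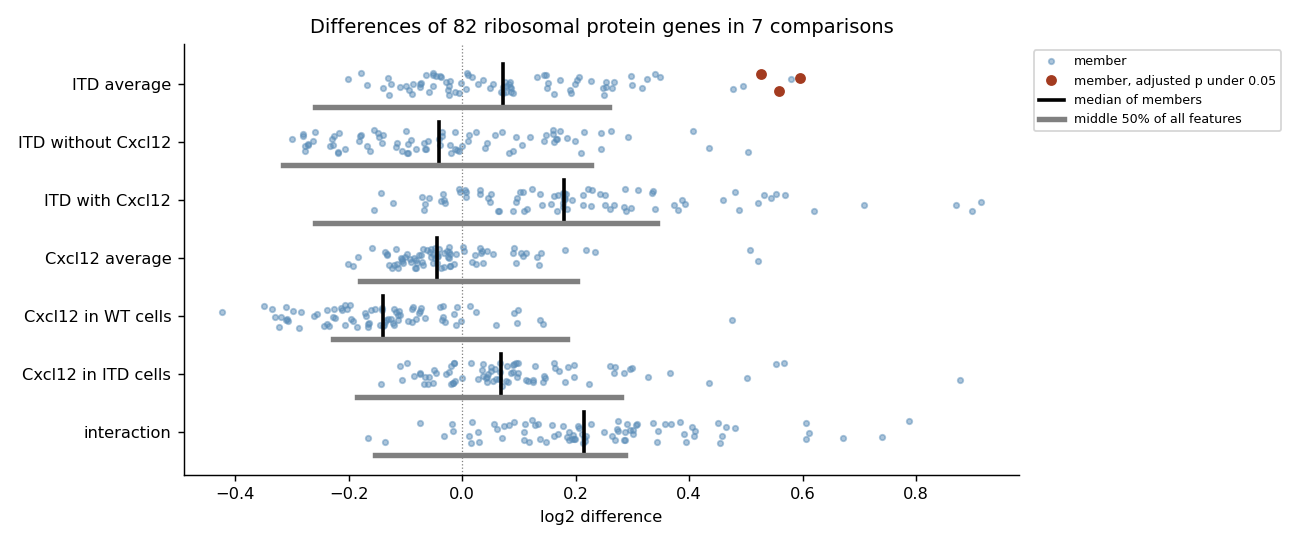
Log2 difference (horizontal axis) of each of the 82 members in each of 7 comparisons (rows), with members past an adjusted p of 0.05 in red. Black bars are medians over members and grey bars span the middle 50% of all 13868 features; the 3 red points are Rps15a, Rpl36al and Rps27l.

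In cells without Cxcl12, 0 of 82 members passed for FLT3/ITD against wild type (0.505% of all features were called; 2 members and 12.3% of all features had an unadjusted p under 0.05). The median was -0.04 (-0.12 in set 1 and 0.04 in set 2), against -0.05 for all features. The highest values were 0.50 ± 0.18 for Rpl29, 0.43 ± 0.18 for Rps27l and 0.41 ± 0.19 for Rpl36al, and the lowest -0.30 ± 0.15 for Rps27a, which encodes a ubiquitin fusion, -0.28 ± 0.14 for Rps4x and -0.28 ± 0.17 for Rps28. In cells with Cxcl12, 0 of 82 passed as well (0.836% of all features were called), and 11 members had an unadjusted p under 0.05, all with positive differences, against 18.2% of all features in either direction and 10.6% with positive differences. There the median was 0.18 (0.16 and 0.19), against 0.04 for all features. The highest values were 0.91 ± 0.24 for Rpl13a (1.33 in set 1 and 0.50 in set 2; limma adjusted p = 0.115), 0.90 ± 0.21 for Rps15a (adjusted p = 0.091) and 0.87 ± 0.20 for Rpl22l1 (adjusted p = 0.0919). Without the set 2 array of FLT3/ITD cells with Cxcl12, 2 members, Rpl13a and Rpl22l1, were called in this comparison. Without Cxcl12 the sign of the median was not stable. Median scaling kept it negative (-0.04, with 32 of 82 members positive). It was 0.034 with quantile normalization and 0.19 with the authors' tables, where 73 of 82 were positive. Leaving out the set 1 array of FLT3/ITD cells without Cxcl12 gave 0.02, with 44 positive. The median of all features was -0.05, -0.02, 0.19 and -0.02 in the same order. With Cxcl12 the members' median stayed positive, at 0.18 with median scaling, 0.067 with quantile normalization and 0.20 with the authors' tables.

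The size of the FLT3/ITD difference went with probe brightness among members. The 41 dimmer members had a median average difference of 0.19, with 36 of 41 above 0, and the 41 brighter ones -0.02, with 15 of 41 above 0. Of all 13868 features, 48.8% were above 0. Across the 82 members, Pearson's r between mean level and difference was -0.33 and Spearman's rho -0.61. Across all 13868 features, r was 0.16 and rho 0.21. These are descriptions across genes of the same 8 arrays, which share scaling and scanner range, and genes are not independent replicates. With quantile normalization the medians were 0.12 for the dimmer and -0.01 for the brighter members.

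**Figure D3:**
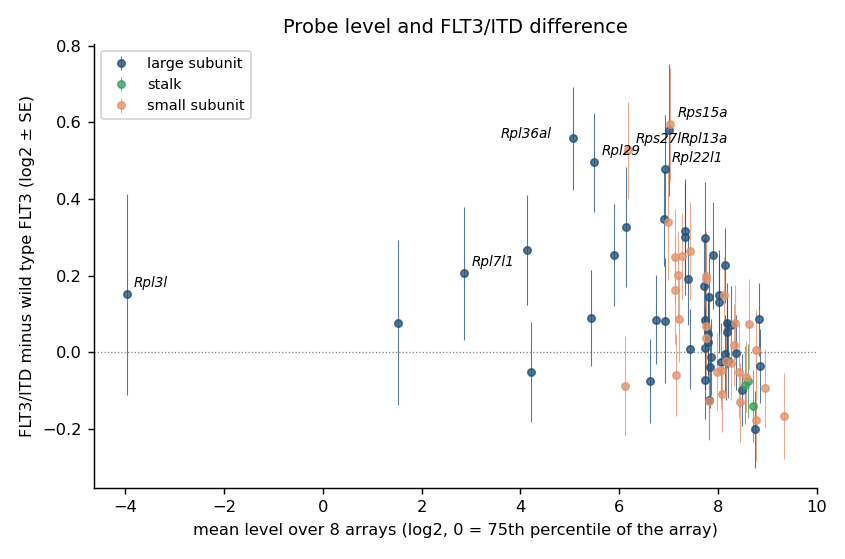
Mean level over 8 arrays (horizontal axis, log2, 0 is the array's 75th percentile) and average FLT3/ITD minus wild type difference (vertical axis, log2, with SE) for 82 members, coloured by subunit. The members with the highest differences lie between levels of 5 and 7.1, and those above a level of 8.5 lie near or below 0.

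Paralogs were set against their parents on each array. Rpl22l1 had levels of 6.31 and 7.34 in wild type cells, 5.89 and 7.19 with Cxcl12, 6.20 and 7.61 in FLT3/ITD cells and 7.08 and 7.74 in FLT3/ITD cells with Cxcl12, whereas its parent Rpl22 stayed between 6.32 and 6.61 in set 1 and between 6.64 and 6.99 in set 2. The log2 ratio of a paralog's to its parent's signal has no meaning as a level, since the 2 probes differ, but its change between groups does. For Rpl22l1 over Rpl22 the ratio was higher by 0.55 in FLT3/ITD cells, from -0.43 to 0.50 on wild type arrays and from -0.23 to 1.09 on FLT3/ITD arrays. For Rps27l over Rps27 it was also higher by 0.56, from -2.54 to -2.18 and from -2.30 to -1.44. Both FLT3/ITD arrays exceeded both wild type arrays of the same set for each of these 2 pairs. For the Rps27 pair in set 1 this was narrow, with -2.298 in FLT3/ITD cells without Cxcl12 and -2.303 in wild type cells with it. Its Rps27 probe is the one placed on chromosome 9. The exact two-sided permutation test within sets gave p = 0.0556 for each of the 2 pairs (0.111 after Benjamini-Hochberg adjustment over 4 pairs). That is the smallest p its 36 arrangements allow, so the design cannot pass 0.05 here. The ratio of Rpl7l1, a nucleolar paralog, to Rpl7 differed by -0.05 (exact permutation p = 0.889) and that of Rpl3l to Rpl3 by 0.02 (exact permutation p = 0.944). A further pair, Rpl36al over Rpl36a, was picked after its values were seen and has no test: its ratio was higher by 0.55, and Rpl36a itself differed by 0.01 ± 0.11. Transcripts of a paralog and its parent are alike, and how much of a probe's signal came from the other was not tested. The promoter stretches printed above are those of the Rpl22, Rps27 and Rpl36a pairs.

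**Figure D4:**
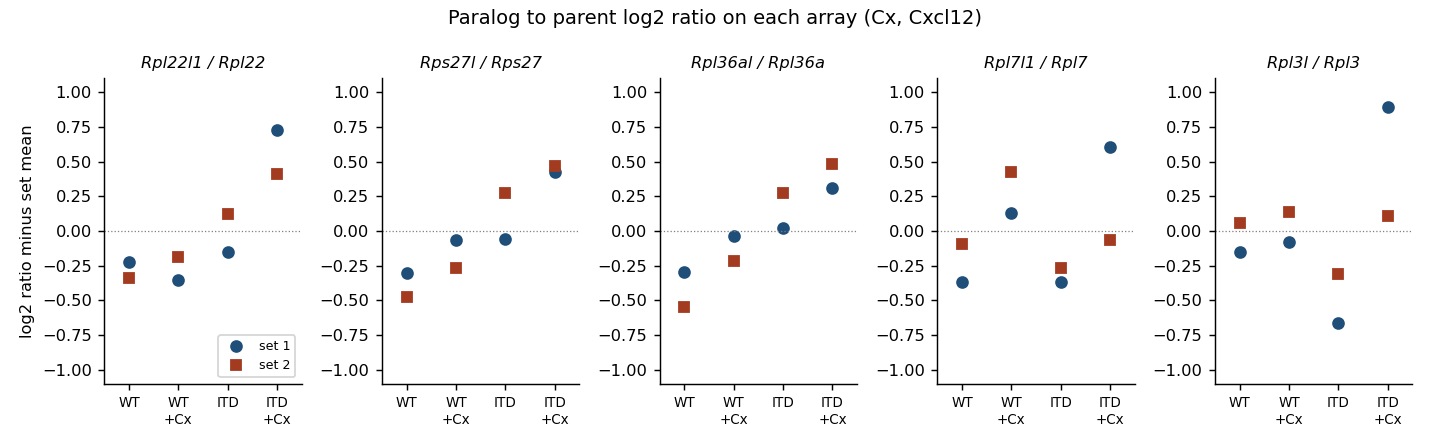
Log2 ratio of a paralog's signal to its parent's on each array, minus the mean of the set (vertical axis), by group (horizontal axis; Cx, Cxcl12), for set 1 (circles) and set 2 (squares). In the first 3 panels both FLT3/ITD arrays of a set lie above both of its wild type arrays, and in the 2 panels of Rpl7l1 and Rpl3l they do not.

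The second question was whether 4 h with Cxcl12 altered these mRNAs. For Cxcl12 averaged over both kinds of cell, 0 of 82 members passed the test in limma (0.382% of all features were called; 1 member and 14.8% of all features had an unadjusted p under 0.05). The median was -0.04 (-0.02 in set 1 and -0.06 in set 2) against 0.01 for all features, and 78 of 82 confidence intervals lay within 1.5-fold. The highest was Rpl7l1, with levels of 2.91 and 2.13 in wild type cells, 3.21 and 2.77 with Cxcl12, 2.78 and 2.57 in FLT3/ITD cells and 3.76 and 2.72 with Cxcl12. It was the 1 member with both Cxcl12 arrays above both others in each set (6.13% of all features), and its difference was 0.52 ± 0.17 (limma adjusted p = 0.207). Rpl3l, a dim probe with a mean level of -3.96, followed with 0.51 ± 0.26 and Rps27l with 0.23 ± 0.13. The lowest were Rps19 with -0.20 ± 0.10, Rpl22 with -0.19 ± 0.11 and Rplp1 with -0.18 ± 0.09. The dimmer kept probe of Rps19 had the opposite sign, 0.33 (0.64 in set 1 and 0.02 in set 2). That of Rpl22 gave -0.17. In 3 members, Rpl22, Rplp1 and Rps3a, both Cxcl12 arrays of each set lay below the others (4.99% of all features).

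Split by kind of cell, 0 of 82 members passed with Cxcl12 in wild type cells (0.0649% of all features were called; 4 members, Rps19, Rplp1, Rplp2 and Rpl39, had negative differences with an unadjusted p under 0.05, against 7.15% of all features in either direction and 4.28% with negative differences). In FLT3/ITD cells 0 of 82 passed and 0% of all features were called; 3 members, Rpl3l, Rpl7l1 and Rpl22l1, and 10.4% of all features had an unadjusted p under 0.05. In wild type cells 73 of 82 members had a negative difference, 57 of them in both sets (47.9% of all features were above 0), with a median of -0.14 (-0.18 in set 1 and -0.12 in set 2) against -0.02 for all features. Rps19 had -0.34 ± 0.14, Rps21 -0.35 ± 0.18 and Rpl21 -0.42 ± 0.30, while Rpl7l1 had 0.48 ± 0.24. The Rpl21 levels in these cells were 0.04 without and -0.07 with Cxcl12 in set 1, and 3.37 and 2.63 in set 2. The dimmer kept probe of Rps19 read 2.54 and 2.44 in set 1, and 5.52 and 5.51 in set 2. In FLT3/ITD cells 59 of 82 had a positive difference (55.5% of all features), with a median of 0.07 (0.13 and 0.01) against 0.04 for all features. The highest was 0.88 ± 0.37 for Rpl3l (1.38 in set 1 and 0.38 in set 2), whose mean level was only -3.96. With median scaling the medians in wild type and FLT3/ITD cells were -0.13 and 0.08, with 10 and 59 of 82 members positive. With quantile normalization they were -0.02 and 0.02, with 37 and 49 positive, and with the authors' median-scaled tables -0.01 and -0.02, with 36 and 34 positive. Under these scalings the wild type median stayed negative but came near 0 in the last 2, and the FLT3/ITD median turned negative with the authors' tables. The median of all features moved too, to 0.11 in wild type and -0.05 in FLT3/ITD cells with the authors' tables. The members' median minus that of all features was -0.12 and 0.03 there, as with the main scaling. With quantile normalization it was -0.03 and 0.01.

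The interaction, that is the Cxcl12 difference in FLT3/ITD cells minus that in wild type cells, passed the test for 0 of 82 members (0% of all features; 3 members and 1.70% of all features had an unadjusted p under 0.05). It was above 0 for 76 of 82 members, and for 58.1% of all features, with a median of 0.21 (0.29 in set 1 and 0.11 in set 2) against 0.06 for all features. Rpl22l1 had the highest value, 0.79 ± 0.29 (1.30 in set 1 and 0.28 in set 2). Its other kept probe, far dimmer with a mean level of -3.84, gave -0.30 (-0.40 in set 1 and -0.21 in set 2). The difference of the family from all features was 0.15 with the main scaling, 0.15 with median scaling and with the authors' tables, and 0.04 with quantile normalization. Median scaling gave a median of 0.22 with 76 of 82 members above 0 and quantile normalization 0.034 with 49. With the authors' tables it was -0.0041 with 39 above 0, so the size of the family's interaction depended on the scaling, and its sign turned with the authors' tables. The array of wild type cells with Cxcl12 in set 1 had 9 of 82 members above the set mean and the one in set 2 had 12; on the other 6 arrays 19 to 62 members were above it.

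Probes of 1 gene did not always agree. Of the 42 members with several kept probes, 14 had a probe whose average FLT3/ITD difference was opposite in sign to that of the brightest, and the median gap between probes was 0.18. The widest gap was in Rpl23, where the brightest probe gave 0.14 and the other -1.52, the same in both sets (-1.53 and -1.51). With the mean of all kept probes in place of the brightest, the calls were Rpl36al and Rpl29 higher and Rpl23 lower. The 4 probes of Rpl29 all had positive differences. For the Cxcl12 average, 16 of the 42 members had a probe opposite in sign to the brightest. The widest gap there was 1.27, in Rps12.

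Related genes were set beside the members through lists of textbook genes. Of ribosomal proteins outside the name rule, Fau had an average FLT3/ITD difference of -0.14 ± 0.10 (limma adjusted p = 0.433) and Rack1 one of -0.07 ± 0.10 (adjusted p = 0.67), and neither passed. Of 14 other mRNAs with a TOP element (elongation factors, Pabpc1, Tpt1 and the like), 0 passed, with a median of 0.11; with Cxcl12, 1 rose on average, the histone chaperone Nap1l1, by 1.07 ± 0.15 (limma adjusted p = 0.0333). Of 15 mTORC1 pathway genes, 1 rose in FLT3/ITD cells, Eif4ebp1, the repressor of cap-dependent translation, by 0.65 ± 0.13 (limma adjusted p = 0.028). With Cxcl12 the mTORC1 inhibitor Ddit4 fell by 1.80 ± 0.22 on the log2 scale (limma adjusted p = 0.0274). In the Cxcl12 average 0.382% of all features were called.

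Genes that build ribosomes were counted in the same FLT3/ITD average. Of 27 ribosome assembly factors, 8 rose, 0 fell and 26 had a positive difference, with a median of 0.63 (0.41 in set 1 and 0.90 in set 2), against the 0.07 of the ribosomal proteins. Nolc1, a nucleolar phosphoprotein, rose by 1.24 ± 0.20 (limma adjusted p = 0.0125), Gnl3, nucleostemin, by 1.09 ± 0.25 (adjusted p = 0.0378), Tsr1 of small subunit maturation by 1.06 ± 0.21 (adjusted p = 0.0279) and Bysl by 1.04 ± 0.25 (adjusted p = 0.0444). Of 14 RNA polymerase I genes, 3 rose, with a median of 0.31: Polr1b, Polr1e and Rrn3. Of 10 chaperones and importers of ribosomal proteins 0 passed, with 10 positive and a median of 0.30 (0.07 in set 1 and 0.59 in set 2). Of 78 mitochondrial ribosomal proteins 8 rose and 0 fell, with 77 positive and a median of 0.39 (0.24 in set 1 and 0.59 in set 2). Among those that rose was Mrps18b with 0.98 ± 0.20 (limma adjusted p = 0.0273). Of 38 proteasome subunits 1 rose, Psma3, with 37 positive and a median of 0.37 (0.09 in set 1 and 0.66 in set 2). The background was 3.58% of all features called higher and 48.8% with a positive difference, and nothing is called particular to a list from these counts.

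Among the genes outside the family whose levels followed the members' median most closely over the 8 arrays, after each set's mean was subtracted, were Osbpl5, Mtrex, Naca and Sema6c, with Pearson's r of 0.98 to 0.94. This is a description over 8 arrays that share scaling, chosen as the highest among all genes.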

How the data were processed

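Total RNA of 8 Ba/F3 samples was labelled with Cy3 and hybridised to Agilent 4x44K mouse arrays, 1 per sample. The deposited intensity values had, per the file headers, been background-subtracted and detrended within each array by Agilent Feature Extraction (9.5.1.1 for set 1, read from 2 scans; 10.7.3.1 for set 2). The authors' deposited tables hold median-scaled intensity. Here log2 of the processed intensity minus each array's 75th percentile was used, outlier spots were set missing, spots of a probe averaged, and probes kept that read well above background on both arrays of some group. All 13868 features (1788 unnamed probes stood for themselves) were fitted with limma 3.58.1 (R 4.3.3): 4 group means, array set as block, eBayes with intensity trend, Benjamini-Hochberg threshold 0.05, leaving 3 residual degrees of freedom. Pairing comes from the slide recorded in the headers: deviations of arrays of a set correlated at 0.730 to 0.878. The number of arrays limits the precision. The fit was run on simulated arrays with independent noise and larger differences than the members had. That run does not bear on the calls. The members and lists were chosen with earlier results of these data known. Members named are, by rule, those called, the 3 highest and lowest per comparison, a fixed list of core proteins and paralogs, and the 5 most and least variable; from a list, up to 4 called genes. A few genes of the lists are not reported here.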

Additional observations from a re-analysis of the deposited data

Results flagged for a closer look

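The median Cxcl12 difference of the 82 members was negative in wild type FLT3 cells in both sets (-0.18 and -0.12, against -0.05 and 0.03 for all features). In FLT3/ITD cells it had the opposite direction in set 1 (0.13, against 0.08 for all features). In set 2 it was near 0 there (0.01, against 0.004 for all features), with 44 of 82 members positive. The median of the difference between the 2 kinds of cell was 0.21, against 0.06 for all features. The difference of the family median was not tested, and 0 of 82 single members passed the interaction test in limma. With the authors' tables the median of the difference between the 2 kinds of cell was -0.0041, against -0.16 for all features. The members' medians in wild type and FLT3/ITD cells were then both negative (-0.013 and -0.023).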

How the results depend on the processing

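The number of members called in the average FLT3/ITD comparison (3) was 0 with normexp background correction and 0 with no replicate block for the array set. It was also 0 without the intensity trend and 0 with no filter on dim probes. The count was 1 with quantile normalization, 2 with median scaling (Rps15a was lost), 5 with the authors' tables and 0 to 3 when 1 array was left out. For FLT3/ITD with Cxcl12 it was 0 to 2 when 1 array was left out. The other 5 counts stayed at 0 under every alternative run, saturated probes left out and leaving out each array included. The block changed no other member's call. Normexp could not be fitted well on the second array of wild type cells with Cxcl12, whose 25th percentile came to 1418 against 65.6 to 82.2 on the others. It moved the members' median to 0.47 for the FLT3/ITD average, 0.96 for FLT3/ITD with Cxcl12, -0.43 for the Cxcl12 average, -0.91 for Cxcl12 in wild type cells and 0.98 for the interaction. Normexp with 1 background per array, chosen after seeing the data, gave 2 calls and medians within 0.03 of the main ones. Quantile normalization moved the median to 0.067 for FLT3/ITD with Cxcl12, 0.0024 for the Cxcl12 average, -0.017 for Cxcl12 in wild type cells and 0.034 for the interaction. The authors' tables moved it to 0.20 for the FLT3/ITD average, 0.19 for FLT3/ITD without Cxcl12, -0.013 for Cxcl12 in wild type cells, -0.023 for Cxcl12 in FLT3/ITD cells and -0.0041 for the interaction, and the mean of probes to 0.22 for FLT3/ITD with Cxcl12. The authors' tables also moved the median of all features, to 0.12 in the FLT3/ITD average and 0.19 in FLT3/ITD without Cxcl12. For all features it came to 0.11 for Cxcl12 in wild type cells, -0.05 for Cxcl12 in FLT3/ITD cells and -0.16 for the interaction. Within set 1 alone the members' median was 0.035 for the FLT3/ITD average and 0.16 for FLT3/ITD with Cxcl12. Leaving out 1 array gave medians of 0.024 to 0.11 (FLT3/ITD average), 0.15 to 0.20 (with Cxcl12), -0.11 to 0.02 (without), -0.07 to -0.02 (Cxcl12 average), -0.19 to -0.10 (wild type cells), 0.01 to 0.12 (FLT3/ITD cells) and 0.15 to 0.30 (interaction). Fitting named genes alone, a choice added after counts under both were seen, gave the same 3 calls, and 949 calls over all genes against 855. Apart from the normexp fit, the cause of these changes was not tested.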
